A study of Homo sapiens with 6 samples.

Results

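Notch signalling passes between touching cells and is described here through 10 genes in HSC-3 cells, an established line of human squamous carcinoma of the tongue. The genes are the receptors NOTCH1, NOTCH2 and NOTCH3, the ligands JAG1, JAG2 and DLL1, the Notch inhibitor NUMB, the coactivator MAML2 and the target genes HES1 and HEY1. They were taken by name, out of 19775 genes that have a probe set of their own on the array. The choice of genes was made with earlier results of these data known. Every probe set annotated to them was used, 30 of 54613, of which 26 are annotated to the member alone and 4 to other genes as well. RNA of cells after 48 h of culture was hybridised to 6 arrays, 3 titled TAT-2, for cells overexpressing trypsin-2, and 3 titled vector, for cells carrying a control vector. Both lines are HSC-3 and were grown in the same medium with serum and hydrocortisone, and the design text describes the vector cells as making no trypsin-2. Whether either line is 1 clone, and which promoter drives the introduced gene, is left unstated by the labels. Nothing in the labels says that the arrays of a group came from separate cultures, and the spread that p-values measure is that between arrays, which may be technical.

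A Notch receptor is a membrane protein that binds a Jagged or Delta ligand on a neighbouring cell. Binding opens the receptor to cleavage by an ADAM protease and then by gamma-secretase, and the freed intracellular part enters the nucleus, where it joins the DNA-binding protein RBPJ and a Mastermind coactivator to switch on genes such as HES1 and HEY1. In stratified epithelia the pathway is known for driving keratinocytes from the basal layer toward differentiation, and in squamous carcinomas NOTCH1 is a frequently mutated gene.

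Probe sets of PRSS2 alone did not bear out the labels. The brighter one, which reads the gene of trypsin-2, gave 20.4, 13.8 and 14.6 on the arrays labelled TAT-2 and 19.6, 80.8 and 83.2 on those labelled vector. Its signal went against the labels in replicates 2 and 3 and was about equal in replicate 1 (exact permutation p = 0.2, two-sided). The other PRSS2 probe set, at 19.1 ± 1.05 against 38.4 ± 15.9 (SD, n = 3 each), was also lower on the arrays labelled TAT-2. A probe set shared by PRSS1 and PRSS2 lay below the filter level, at 2.67 ± 0.771 against 1.07 ± 0.303. It was higher on the arrays labelled TAT-2, without overlap. Whether these probe sets read the introduced sequence is not known from the files. Directions below therefore rest on the labels alone. Precision is limited by there being 3 arrays in each group. The first principal component, with 45.6% of the variance, parted the replicate 1 arrays of both groups from replicates 2 and 3, and the second, with 21.7%, parted the groups. The sample descriptions also write replicate 1 in another form than replicates 2 and 3. The 7 squamous keratinocyte markers with a probe set of their own, KRT5 and KRT14 among them, all lay above the filter level, with summed signals of 21759 to 23560 on arrays labelled TAT-2 and 19586 to 26192 on arrays labelled vector. Markers of other cells were low: summed signals ran from 112 to 137 for 6 fibroblast genes, from 40.6 to 55.9 for 4 endothelial genes and from 36.7 to 100.0 for the 4 leukocyte genes measured of 5, over the 6 arrays. The defining genes COL3A1, VWF, CDH5, PTPRC and CD3E lay below the filter level, while COL1A1 and DCN (fibroblast), PECAM1 (endothelial) and CD14 (leukocyte) lay above it.

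With the replicate number as a block, 2 of the 3 ligands changed: JAG1 was lower and DLL1 was higher on the arrays labelled TAT-2, by 1.36-fold and 1.27-fold on their brightest probe sets. Neither passed in the fit by group alone, and with replicate 1 against the rest as a batch factor only JAG1 passed. The ligand JAG2, the receptors, NUMB, MAML2, HES1 and HEY1 did not pass the threshold in any of these fits. Differences are given on the scale of log2(signal + 16), TAT-2 minus vector, which understates the change of dim probe sets. A probe set was tested where its mean reached the median of all probe sets, a signal of 15.2, called here the filter level. Of the 26 probe sets of 1 gene, 19 were tested, and 9 of the 10 genes have at least 1 of them, NOTCH3 having none. Without a block limma called 0 of the 19 at an adjusted p of 0.05, while 4 had an unadjusted p under 0.05. In the same fit 0.0293% of all 27307 tested probe sets were called, and 7.86% had an unadjusted p under 0.05. With the replicate number as a block, which compares arrays of the same number, limma called 4 of the 19 (1 higher, 3 lower), against 5.21% of all tested probe sets (2.55% higher, 2.66% lower). With replicate 1 against the rest as a batch factor it called 3, all of JAG1, against 4.51%. The 4 called with the block are probe sets of ligands. The median difference of the 19 was -0.06, beside -0.01 over all tested probe sets, and the groups were apart in 4 of the 19 probe sets, beside 14.1% of all. Without the intensity trend of the variance the blocked limma fit called none of the 19, with 7 at an unadjusted p under 0.05, and 0 of all tested probe sets.

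**Figure D1:**
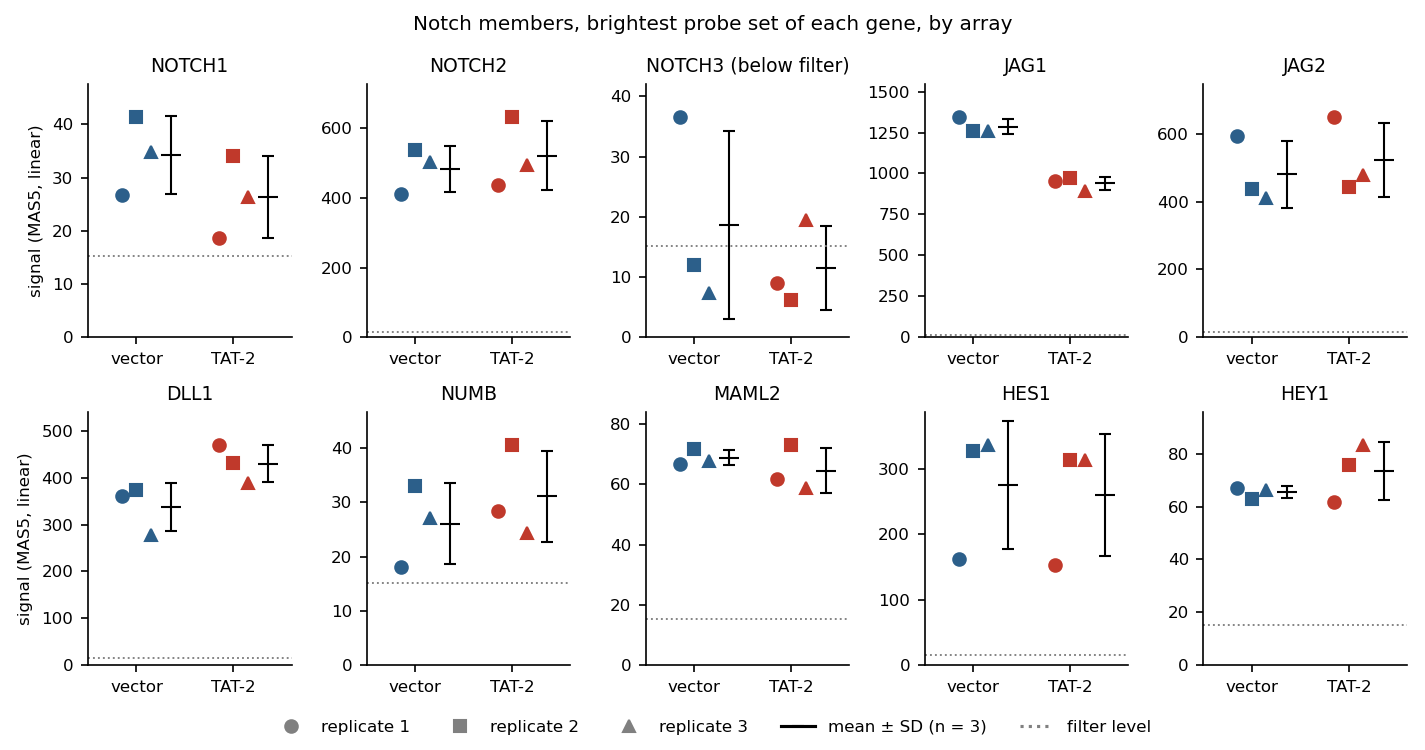
Signal (linear, vertical axis from 0) of each of the 10 genes on the 3 arrays labelled vector (blue) and the 3 labelled TAT-2 (red). Each gene is shown by the brightest probe set annotated to it alone, so brighter shared probe sets of NUMB and NOTCH2 are left out. Symbols mark the replicate number, bars the mean ± SD (n = 3) and the dotted line the filter level of 15.2. The groups are apart for JAG1 and DLL1, and the replicate 1 arrays of HES1 lie at about the same low level in both groups.

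JAG1 encodes Jagged-1, a ligand carried on the cell surface. Its brightest probe set, 209099_x_at, gave 952, 973 and 892 on replicates 1, 2 and 3 labelled TAT-2, and 1342, 1259 and 1258 on those labelled vector. Every array labelled TAT-2 was below every array labelled vector, and the groups lay far apart beside their spread (939 ± 42.0 against 1287 ± 48.2, SD, n = 3 each). The difference was -0.45 ± 0.06 (SE) with the block, with a 95% interval of -0.59 to -0.31 (adjusted p = 0.00307 in limma, and 0.140 without the block). By replicate number it was -0.49, -0.37 and -0.49. Of all tested probe sets 4.87% had a larger difference in either direction. The arrays read RNA of whole cultures, so fewer cells carrying a transcript and less of it per cell cannot be told apart, here and below.

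A second bright JAG1 probe set, 216268_s_at, gave 819, 797 and 734 on the arrays labelled TAT-2 and 1217, 1026 and 1037 on those labelled vector. The groups again did not overlap, and the fall was 1.38-fold (-0.47 ± 0.07, SE, adjusted p = 0.00307 with the block in limma, and 0.193 without it). The dimmer 231183_s_at gave 112, 94.2 and 111 against 172, 166 and 143, which also kept the groups apart (-0.53 ± 0.11, SE, adjusted p = 0.0168 with the block in limma, and 0.276 without it). Its call, unlike those of the brighter pair, was lost without replicate 1 of both groups (adjusted p = 0.0681 in the blocked limma fit), without replicate 2 of both (0.115) and with no filter (0.0789). In 209098_s_at, with 129, 86.5 and 73.9 against 167, 124 and 87.9, the groups overlapped. There JAG1 was lower in each replicate number, by -0.34, -0.45 and -0.21, but the probe set did not pass (adjusted p = 0.115 with the block in limma). The remaining JAG1 probe sets lay below the filter level and were not tested, with 3.87 ± 2.87 against 8.39 ± 2.00 on 209097_s_at and 1.91 ± 0.763 against 2.06 ± 0.370 on 229924_s_at (SD, n = 3 each). Names ending in _x_at or _s_at mark probe sets that can read more than 1 transcript, and probe sets of 1 gene on the same array are not replicates. The exact permutation p was 0.1, the smallest that 3 arrays against 3 allow, for each of the 3 probe sets that were called.

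The genes that flank JAG1 were lower as well. JAG1 lies on chromosome 20 (RefSeq gene table, assembly GRCh38.p14), and of the 10 tested genes nearest to it on either side 18 of 20 were lower and 8 passed the threshold downward with the block, none upward, where 3.46% of all tested genes were called lower. Those 8 were MCM8, CRLS1, FERMT1, BMP2, ANKEF1, MKKS, TASP1 and SNRPB2, with differences from -0.30 for MKKS to -0.72 for BMP2, a secreted growth factor of the TGF-beta family. The median of the 20 neighbours was -0.29, and by replicate number -0.38, -0.27 and -0.31. Over the whole of chromosome 20, 291 of 350 tested genes outside the member list were lower, with a median of -0.21, and 77 were called lower with the block. The part of this shift in the JAG1 difference was not tested.

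The sequence just upstream of JAG1 is shown because JAG1 fell on most of its bright probe sets, and that of HES1 because it is the textbook target of the pathway. Both are the 250 bases before the RefSeq start of the gene in GRCh38.p14, 5′ to 3′ on the gene's strand, JAG1 at chr20:10674000-10674249 (minus strand) and HES1 at chr3:194135898-194136147 (plus strand). Capitals mark TGGGAA, the core letters of an RBPJ site, searched on both strands.
JAG1: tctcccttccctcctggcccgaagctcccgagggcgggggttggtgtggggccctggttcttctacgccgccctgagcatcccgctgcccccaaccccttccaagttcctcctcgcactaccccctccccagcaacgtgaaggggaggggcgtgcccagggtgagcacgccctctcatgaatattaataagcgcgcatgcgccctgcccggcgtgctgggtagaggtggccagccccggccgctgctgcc
HES1: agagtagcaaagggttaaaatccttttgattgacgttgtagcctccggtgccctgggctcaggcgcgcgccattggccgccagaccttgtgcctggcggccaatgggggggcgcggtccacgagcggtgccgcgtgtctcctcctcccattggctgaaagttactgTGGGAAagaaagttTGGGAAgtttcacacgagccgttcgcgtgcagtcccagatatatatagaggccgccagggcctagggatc
The HES1 window holds the core letters at 2 places, which span bases 84 to 79 and 70 to 65 before the start, and the first of them is also a match to GTGGGAA, which overlaps it. The JAG1 window holds none. Of 35116 promoter windows of the same length 20.8% hold the core at least once, 2.9% hold it at 2 or more places and 5.43% hold GTGGGAA. Windows were found for 8 of the 10 genes, not for DLL1 and HEY1, and HES1 was the only one of the 8 with the core. CACNAG, the N-box letters bound by HES proteins, was found on either strand in the windows of HES1 (3 places), MAML2 (2) and NOTCH3 (1), and in 32.0% of all windows. A match is a description of letters and not a shown binding site.

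DLL1 encodes Delta-like 1, a ligand of the other family. Its tested probe set, 224215_s_at, gave 470, 432 and 390 on the arrays labelled TAT-2 and 361, 373 and 279 on those labelled vector. The lowest TAT-2 array lay just above the highest vector array, so the groups did not overlap but came close. The difference was 0.34 ± 0.08 (SE), with a 95% interval of 0.17 to 0.51 (adjusted p = 0.0273 with the block in limma, and 0.594 without it), and 0.37, 0.20 and 0.46 by replicate number. DLL1 lost the call with replicate 1 against the rest as a batch factor (adjusted p = 0.0898 in limma). In the blocked limma fit it lost it without replicate 1 of both groups (0.105), without replicate 3 of both (0.0999), with array medians centred (0.0571) and with no filter (0.102). Of all tested probe sets 11.0% had a larger difference in either direction. The other DLL1 probe set lay below the filter level, at 12.1 ± 8.26 against 9.13 ± 4.07 (SD, n = 3 each), and was not tested. Near DLL1 on chromosome 6 only 4 tested genes follow it before the chromosome end, and of 14 neighbours 9 were lower and 5 higher. With the block C6orf120 (0.36) and PDCD2 (0.41) were called higher, where 3.5% of all tested genes were. Over chromosome 6, 349 of 649 tested genes outside the member list were higher, with a median of 0.02. With the block 83 of them (12.8%) were called, 31 of these lower, against 6.96% of all tested genes. The part of this in the DLL1 difference was not tested.

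JAG2, the second Jagged gene, gave 648, 444 and 479 against 593, 438 and 411 on its brighter probe set. It was higher on the array labelled TAT-2 in each replicate number, by 0.12, 0.02 and 0.21, but the groups overlapped and the gene did not pass (0.12 ± 0.07, SE, adjusted p = 0.434 with the block in limma). The 95% interval of the blocked difference ran from -0.04 to 0.27. The dimmer JAG2 probe set differed by 0.13 (interval -0.05 to 0.31). Neither JAG2 probe set was called in any of the 25 alternatives tried, and each changed its sign in 1 of them.

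**Figure D2:**
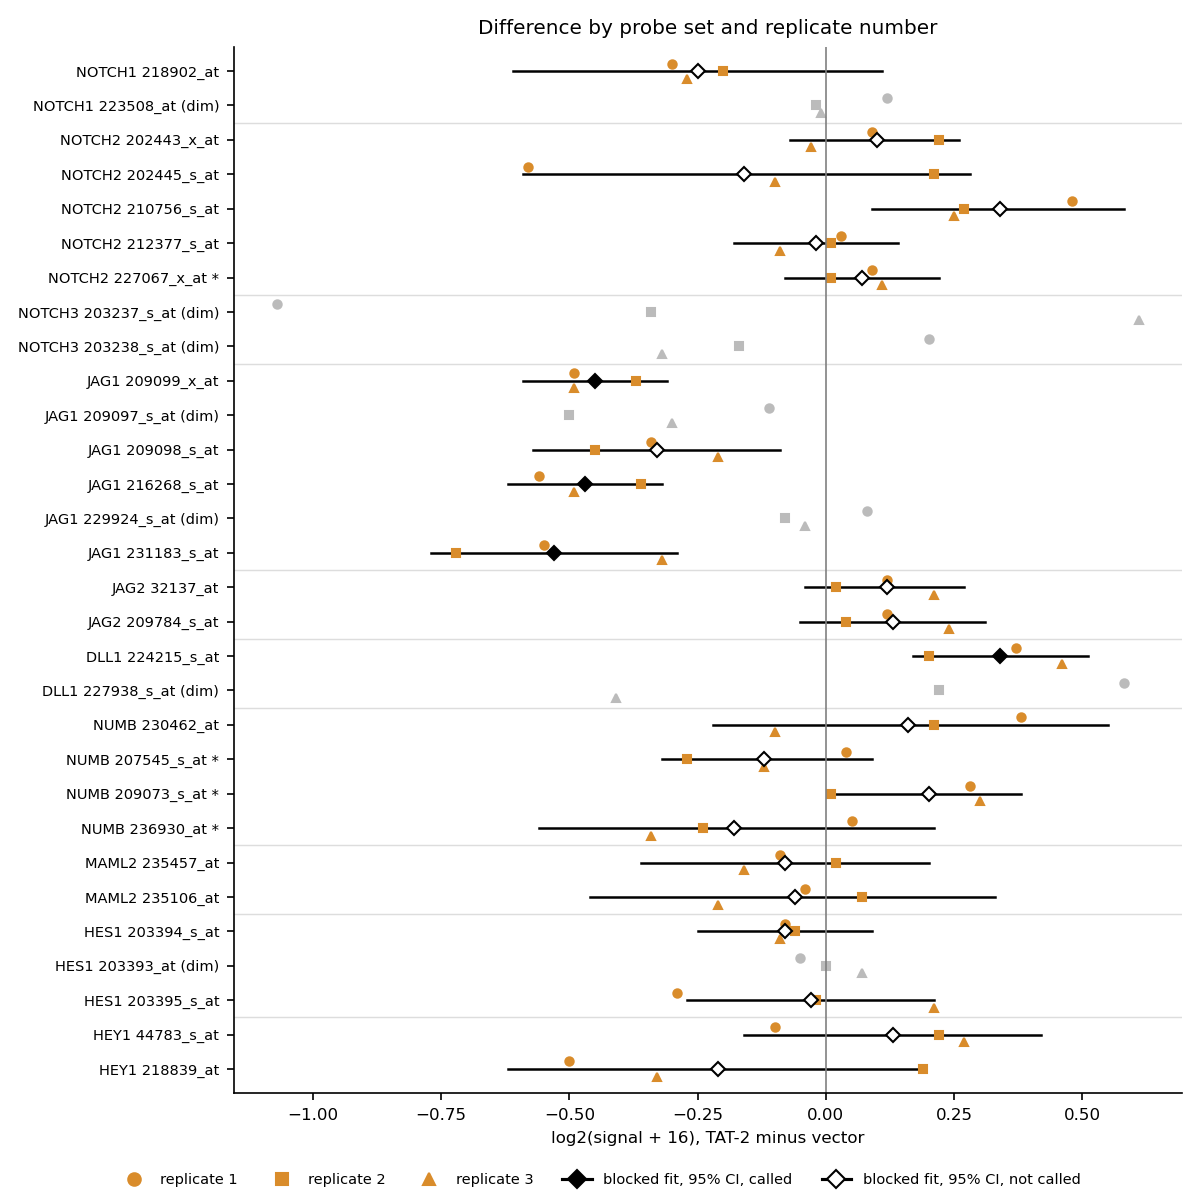
Difference of log2(signal + 16), TAT-2 minus vector (horizontal axis), for each of the 30 probe sets: symbols give the 3 replicate numbers, diamonds the estimate of the fit with the replicate block with its 95% interval, filled where called. Grey symbols marked dim lie below the filter level and were not tested, and an asterisk marks a probe set annotated to other genes too. The filled diamonds are 3 JAG1 probe sets, at -0.45, -0.47 and -0.53, and DLL1 at 0.34.

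Receptors showed no called difference on 5 tested probe sets. With the block 5.21% of all tested probe sets were called, so none of 5 is near that share. NOTCH1, the receptor best known in keratinocytes, gave 18.7, 34.0 and 26.3 on the arrays labelled TAT-2 and 26.7, 41.3 and 34.9 on those labelled vector. It was lower in each replicate number, by -0.30, -0.20 and -0.27, while the groups overlapped. The difference of -0.25 ± 0.16 (SE, interval -0.61 to 0.11) did not pass (adjusted p = 0.469 with the block in limma, and 0.874 without it). Its other probe set, at 1.70 ± 0.851 against 1.32 ± 0.175 (SD, n = 3 each), was below the filter level and not tested.

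NOTCH2 has 4 probe sets of its own, and they differed in sign. The brightest gave 438, 632 and 494 against 410, 538 and 504, a difference of 0.10 (interval -0.07 to 0.26) with overlapping groups. For 212377_s_at, with 376, 429.8 and 367 against 368, 428 and 391.9, the difference was -0.02 (interval -0.18 to 0.14). Of the NOTCH2 probe sets 210756_s_at differed most, with 139, 115 and 93.0 against 94.7, 92.8 and 75.4. It was higher in each replicate number, the groups overlapped by a narrow margin, and it did not pass (0.34 ± 0.11, SE, adjusted p = 0.123 with the block in limma). The dimmest, 202445_s_at, was at -0.16 (interval -0.59 to 0.28), and a probe set that NOTCH2 shares with 4 NOTCH2NL genes was at 0.07 (interval -0.08 to 0.22).

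NOTCH3 was not tested. Its probe sets gave 9.08, 6.17 and 19.4 against 36.5, 12.0 and 7.30, and 13.7, 10.7 and 8.93 against 9.90, 14.0 and 15.1, with means below the filter level. The vector replicate 1 array was the highest of the first probe set and the lowest vector array of the second.

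NUMB is an endocytic adaptor that holds Notch back. Its own probe set gave 28.4, 40.5 and 24.3 on the arrays labelled TAT-2 and 18.1, 33.0 and 27.1 on those labelled vector, with overlapping groups (0.16, interval -0.22 to 0.55). The 3 probe sets shared by NUMB and LOC101928143 were at -0.12, 0.20 and -0.18, so they had no common sign, and none was called in either limma fit. Of these, 209073_s_at (345 ± 50.5 against 299 ± 35.4, SD, n = 3 each) and 207545_s_at (194 ± 23.3 against 211 ± 5.15) were far brighter than the probe set of NUMB alone. The former was higher in each replicate number, by 0.28, 0.01 and 0.30, with overlapping groups. MAML2, a Mastermind coactivator of the Notch complex, gave 61.8, 73.0 and 58.9 against 66.8, 71.6 and 67.8 on its brighter probe set (-0.08, interval -0.36 to 0.20) and was at -0.06 (interval -0.46 to 0.33) on the dimmer one. MAML2 lies on chromosome 11 beside a stretch of lowered genes. The first 4 tested genes on that side of MAML2 were not called. Of the 6 beyond them YAP1, BIRC2, TMEM123, MMP1 and MMP3 were called lower with the block, at -0.79 to -1.40, and 1 was not called. Over all tested genes 3.46% were called lower.

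The target genes showed no called difference either, on 4 tested probe sets, which is again near the 5.21% of all called with the block. HES1, a repressor that Notch switches on, gave 153, 314 and 314 on the arrays labelled TAT-2 and 163, 328 and 337 on those labelled vector. On this probe set, its brightest, arrays of the same number agreed closely, with differences of -0.08, -0.06 and -0.09, and the replicate 1 arrays were low in both groups. HES1 thus followed the replicate number: replicate 1 was 1.95-fold below replicates 2 and 3, a difference of -0.97 among the arrays labelled TAT-2 and -0.96 among those labelled vector. The blocked difference was -0.08 ± 0.08 (SE), with an interval of -0.25 to 0.09, where the fit without the block had an SE of 0.33. The second tested HES1 probe set was at -0.03 (interval -0.27 to 0.21), but its differences by replicate number, -0.29, -0.02 and 0.21, agreed less closely. The remaining one gave signals of 0.911 ± 0.486 and 0.858 ± 0.269 (SD, n = 3 each), near the floor of the arrays.

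HEY1, a related repressor, gave 61.5, 75.8 and 83.2 against 67.1, 63.0 and 66.3 on its brighter probe set, with overlapping groups (0.13, interval -0.16 to 0.42). Its dimmer probe set had the opposite sign, -0.21, with an interval of -0.62 to 0.19. Of the other members with a tested probe set, JAG2 stood on replicate 1 at 1.39-fold above replicates 2 and 3, and NOTCH1 and NOTCH2 at 1.30-fold and 1.26-fold below, while JAG1 (1.04-fold) and DLL1 (1.13-fold) moved less with the number. These are values of single brightest probe sets, and what the replicate number stands for is not given in the labels.

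Around the 10 members, a list of 77 further genes of the pathway was sorted by role, of which 69 have a probe set of their own and 59 were tested, each by its brightest probe set. Of the 59, limma called 0 in the fit by group alone, against 0.0576% of all tested genes. An unadjusted p under 0.05 was reached by 6 of them, against 9.38% of all. With the block 6 of the 59 were called (2 higher, 4 lower), against 6.96% of all (3.5% higher, 3.46% lower), and with the batch factor 6, against 6.15%. With no intensity trend the blocked limma fit called none of the 59, with 10 at an unadjusted p under 0.05. Their median difference was -0.06.

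MFAP5, a microfibril protein that binds Notch receptors and ligands, fell most. It gave 43.4, 23.2 and 21.2 on the arrays labelled TAT-2 and 140, 66.0 and 63.5 on those labelled vector, without overlap (-1.18 ± 0.15, SE, 2.27-fold, adjusted p = 0.00116 with the block in limma, and 0.268 without it). CNTN1, a contactin described as a Notch ligand, rose with the block, from 262, 350 and 287 on the arrays labelled vector to 348, 464 and 470, although the groups overlapped (0.49 ± 0.08, SE, adjusted p = 0.00685 in limma, and 0.0506 with no filter). DLL3, a Delta-like protein that acts mainly inside the cell, was at -0.53 ± 0.18 (SE) and did not pass (adjusted p = 0.129 with the block in limma). Its groups did not overlap, with 14.5 ± 4.45 against 27.8 ± 4.44 (SD, n = 3 each).

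Among the genes of trafficking, 2 ubiquitin ligases fell with the block. MIB1, which drives the endocytosis of ligands, was at -0.37 ± 0.08 (SE, adjusted p = 0.0260 in limma), with 208, 298 and 305 against 313, 367 and 374. ITCH, which marks Notch for degradation, was at -0.36 ± 0.08 (SE, adjusted p = 0.0243), with 364, 426 and 455 against 546, 521 and 543. The groups did not overlap for either. ITCH lies on chromosome 20, as JAG1 does. Without replicate 1 of both groups neither passed in the blocked limma fit (adjusted p = 0.151 for MIB1 and 0.153 for ITCH), nor without replicate 2 of both (0.0629 and 0.0607) or with no filter (0.103 and 0.109), and ITCH did not with array medians centred (0.0524). DTX3L, next in this role, was at 0.18 ± 0.08 (SE) and did not pass.

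The machinery of cleavage and of the nuclear complex held no called gene, where 6.96% of all tested genes were called with the block. With 7 tested genes in each, a count of none is near that share. Of 7 tested genes of the sheddases and gamma-secretase, APH1B (-0.27), APH1A (0.12) and ADAM17 (0.09) had the smallest p, and none passed. The only other tested APH1B probe set had the opposite sign, as had 1 of 2 others for APH1A and for ADAM17. Of 7 tested genes of the nuclear complex, EP300, a histone acetyltransferase, was at -0.38 ± 0.12 (SE, adjusted p = 0.103 with the block in limma). RBPJ was at -0.12 ± 0.07, with 1 of 2 other tested probe sets of opposite sign, and SNW1 at -0.10 ± 0.06. Of 5 glycosylation genes, which set how receptors read their ligands, LFNG was at 0.24 ± 0.12 and POFUT1, also on chromosome 20, at -0.30 ± 0.16. POGLUT1 was at 0.14 ± 0.12, with its only other tested probe set of opposite sign, and none of the 5 genes passed.

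Of 10 tested corepressor genes CTBP2 rose with the block (0.37 ± 0.07, SE, adjusted p = 0.00871 in limma), with 2041, 1465 and 1502 against 1607, 1198 and 1075 and overlapping groups. Of 5 further CTBP2 probe sets tested, 1 went the other way. CTBP2 did not pass in the blocked limma fit with array medians centred (adjusted p = 0.0615) or with no filter (0.0605). HDAC2 (-0.16 ± 0.07, groups without overlap) and SPEN (-0.14 ± 0.08) did not pass. CCND1, the cyclin D1 gene and a reported Notch target, fell with the block (-0.38 ± 0.06, SE, adjusted p = 0.00685 in limma). It gave 2532, 1501 and 1680 against 3097, 2038 and 2233, so that the groups overlapped while every replicate number was lower. Without replicate 2 of both groups it did not pass (adjusted p = 0.109 in the blocked limma fit), with array medians centred (0.0896) or with no filter (0.052). GATA3 (-0.43 ± 0.13, SE) did not pass (adjusted p = 0.0874 with the block in limma). Its groups did not overlap, and it was at -0.43, -0.41 and -0.44 by replicate number. SOX9 (-0.20 ± 0.08) did not pass, and the only other tested SOX9 probe set had the opposite sign.

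Of 8 further HES, HEY and feedback genes 4 were tested, and none passed with the block, where 6.96% of all tested genes did. HES7 was at 0.25 ± 0.18 (SE) without overlap of the groups, HES4 at -0.09 ± 0.16 and NRARP, a feedback inhibitor, at -0.06 ± 0.12. HES5, HES6, HEY2 and HEYL lay below the filter level, with means of at most 9.95 in either group.

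**Figure D3:**
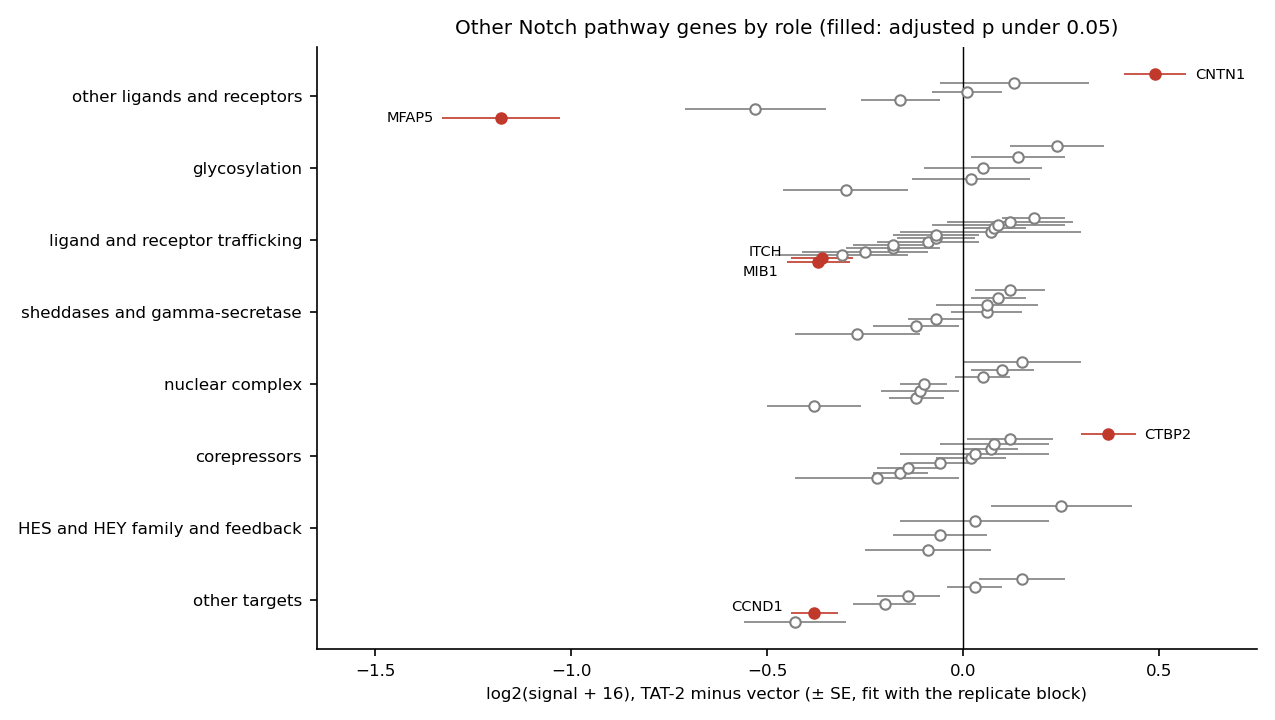
Difference of log2(signal + 16), TAT-2 minus vector (horizontal axis), of the 59 tested pathway genes outside the members, 1 point a gene with ± SE from the fit with the replicate block, in rows by role. Filled and named points are the 6 genes with an adjusted p under 0.05, from MFAP5 at -1.18 to CNTN1 at 0.49.

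The genes whose levels ran most like those of the members over the 6 arrays were named for the 3 members of smallest p in the blocked fit, from 12151 genes and by Pearson correlation of the brightest probe sets. For JAG1 they were WDR35 (r = 0.996), RTF2 (0.993) and LEF1 (0.992), all called lower with the block, at -0.51, -0.47 and -1.17. For DLL1 they were INPP5B (0.997), LMAN2 (0.992) and DHRS4-AS1 (0.981), none of them called. For JAG2 they were ARCN1 (0.999), EXT2 (0.998) and COMTD1 (0.997), none of them called. In JAG1 the groups lie apart, so genes chosen for likeness to it are lower on the arrays labelled TAT-2 by that choice. The 6 points of JAG2 share the shift of replicate 1 (1.39-fold), which is small for JAG1 (1.04-fold). With so many genes some match any pattern closely, so these values are descriptions.

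Neighbours of the other members were counted in the same way. Of 20 tested neighbours each, 13 were lower for NOTCH1, 8 for NOTCH2, 11 for NOTCH3, 11 for JAG2, 8 for NUMB, 12 for MAML2, 9 for HES1 and 7 for HEY1. Their medians lay between -0.07, for MAML2, and 0.12, for HEY1. With the block, called neighbours were CRIP2 (0.76) and CRIP1 (-1.38) beside JAG2, IL1RAP (0.69) beside HES1, PAG1 and IMPA1, both higher, beside HEY1, and ADGRE5 (-0.53) beside NOTCH3. Beside NOTCH1, NOTCH2 and NUMB none of the 20 was called in the blocked limma fit, where 6.96% of all tested genes were.

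**Figure D4:**
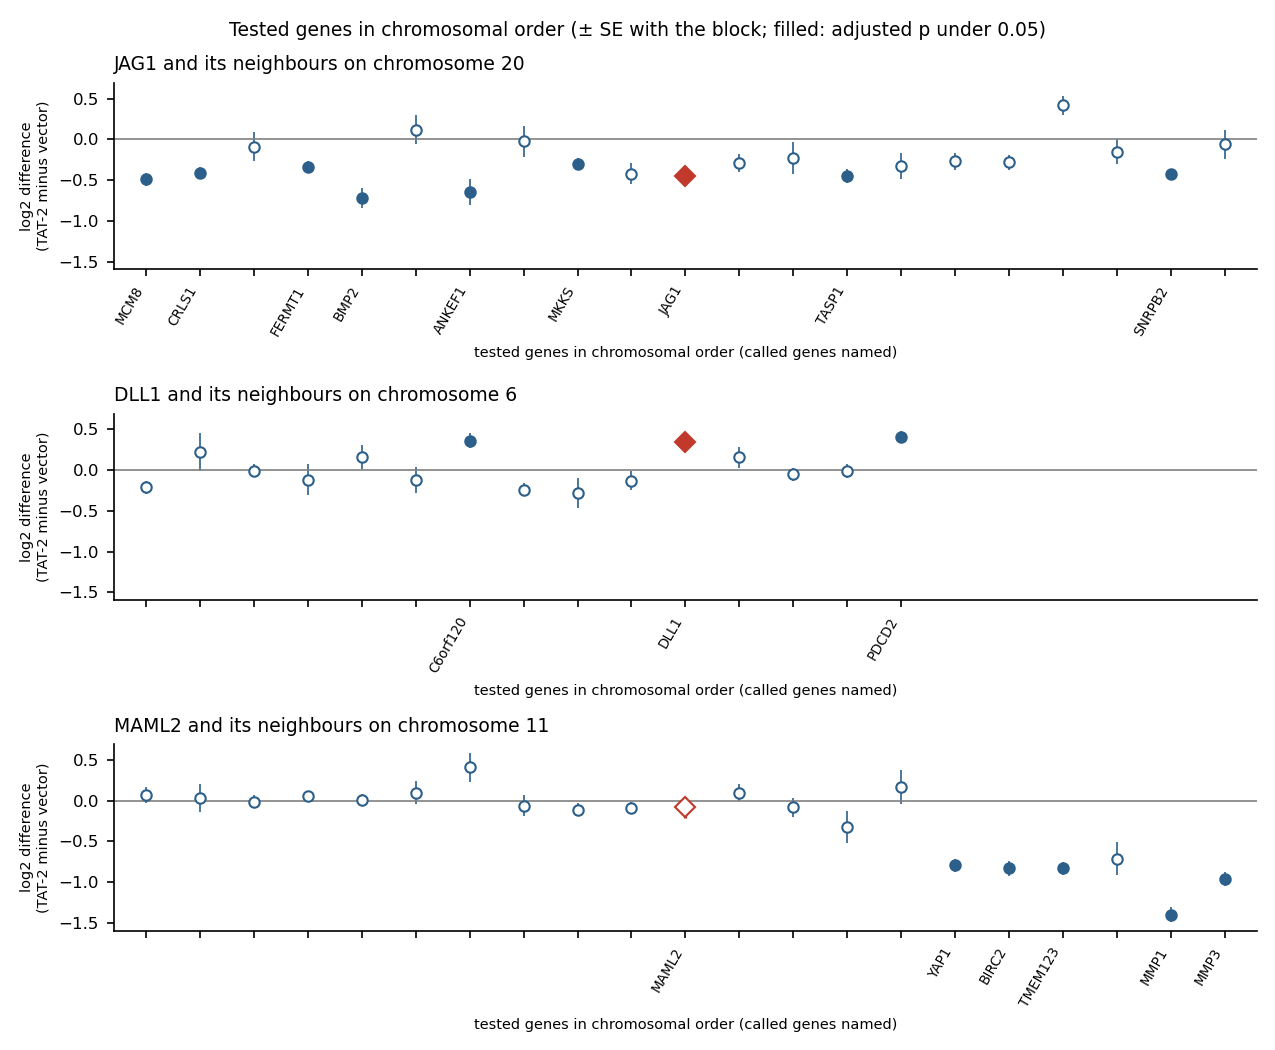
Difference of log2(signal + 16), TAT-2 minus vector (vertical axis), of JAG1, DLL1 and MAML2 (red diamonds) and up to 10 tested genes on each side in chromosomal order (blue circles), ± SE from the fit with the replicate block, filled and named where the adjusted p is under 0.05. Around JAG1 18 of 20 neighbours lie below 0, and MAML2 lies outside the lowered stretch that starts at YAP1.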

How the data were processed

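Signals of 6 arrays were used as the authors deposited them: linear intensities per probe set, from MAS5 according to the labels' tool list (no version is recorded there). Each array's mean between percentiles 2 and 98 was 99.99, so the scaling was kept. Presence calls were not used. Probe sets were named by the platform annotation, updated by gene identifier to RefSeq (41043 of 41097 probe sets with 1 symbol matched). Promoters are RefSeq's (GRCh38.p14).

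Values were taken as log2(signal + 16). Probe sets whose mean reached the median (27307) entered limma 3.58.1 (R 4.3.3; lmFit, then eBayes with trend) on group alone, with Benjamini-Hochberg adjustment over all of them. The fit was run on simulated data with planted changes far larger than any member difference here, so it does not show how often changes of this size are found. Arrays sharing a number deviated from the group means together (r = 0.644, 0.386 and 0.25, each over 0.1), so the replicate number was used as a block beside it. TAT-2 replicate 2 with vector replicate 3 reached 0.316, above the 0.25 of the replicate 3 arrays, and TAT-2 replicate 3 with vector replicate 2 reached 0.2. Deviations from a group mean cancel within the group, so a shift of replicate 1 alone can make numbers 2 and 3 correlate. These values therefore cannot tell a pairing of numbers 2 and 3 from such a shift. The pairing comes from the titles' numbers, whose meaning the labels leave out.

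Members, the pathway list and markers were chosen with earlier results of these data known. Named genes are all members, every called pathway gene and up to 3 of smallest blocked p in each role, 3 genes most like each of 3 members, called neighbours and the PRSS genes. A gene is represented by the brightest probe set annotated to it alone. Alternatives were other pseudocounts, filters, normalizations and variance models, the block, a batch factor and arrays left out. Probe sets annotated to several genes were described apart, and pathway genes without a probe set of their own were not analysed here.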

Additional observations from a re-analysis of the deposited data

How the results depend on the processing

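With the replicate block 4 member probe sets, 6 further pathway genes and 1424 probe sets in all were called, and with the batch factor of replicate 1 they numbered 3, 6 and 1232, against 0, 0 and 8 without either. In all, 0 probe sets were called in the blocked fit with no intensity trend, 13 after quantile normalization, 24 with array medians centred and 5 with no intensity trend. Combined with the block, and chosen after seeing the data, quantile normalization gave 4, 6 and 1588, centred medians 3, 3 and 1372, no filter 2, 1 and 415, a pseudocount of 1 gave 4, 6 and 1279, and a pseudocount of 64 gave 4, 6 and 1499. With arrays or replicate numbers left out the counts ran from 0 to 3 for members, 0 to 6 for pathway genes and 0 to 1393 for all, where the blocked fit gave 795 without replicate 1, 659 without replicate 2 and 1393 without replicate 3. Without replicate 2 or 3 of either group 0 probe sets were called in the fit by group alone, and without TAT-2 replicate 1 there were 29. The causes of these moves were not tested. The 4 tested JAG1 probe sets and DLL1 kept their sign in all 25 alternatives, but in many of these the sign could not change. Filters, variance models, the block and the batch factor leave the difference over the 6 arrays as it is. Where the groups do not overlap, leaving out arrays cannot turn the sign either. The brighter pair of JAG1 kept the call in 9 of 10 fits with the block, all but that with no intensity trend. The mean over a gene's tested probe sets gave JAG1 -0.45 and DLL1 0.34 (adjusted p = 0.245 and 0.442 without the block in limma, and 0.00525 and 0.0223 with it). DLL1 has only 1 tested probe set, so its mean is that probe set again and not a second measure. Both NOTCH3 probe sets lay below the filter level and were not tested in the fits that used it.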
